A study of Caenorhabditis elegans with 2 samples.

Results

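Of 704 autosomal regions that passed the reproducibility threshold in a HPL-2 ChIP-seq experiment in starved first-stage (L1) larvae of Caenorhabditis elegans, 263 lay away from promoters, and 153 further regions past the threshold lay on chromosome X. They were selected on 3 properties: membership of the thresholded list on build ce11, a position off chromosome X, and a summit more than 500 bp from every annotated 5′ end of a protein-coding transcript. The thresholded list was 2.86% of a pooled list of 30000 candidate regions and held exactly its strongest entries by signal, so the 263 regions were chosen by signal. They are called the strong regions here. The weaker regions, set beside them throughout, are the 16258 other autosomal candidates of the pooled list that were equally far from 5′ ends, and the strong regions made up 1.59% of the 2 sets together. At autosomal promoters 441 candidates, or 5.51%, passed the threshold.

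The study has 1 group of 2 libraries, biological replicates 1 and 3 by their labels, made from whole L1 larvae of mixed sex that were starved after bleaching. All animals were of strain YL474, which carries lin-35(n745), unc-119(ed3) and the integrated transgene vrIs64. That transgene expresses HPL-2 joined to GFP and FLAG from the ges-1 promoter, which is known for expression in the intestine, together with unc-119(+) as a marker. The labels name the tagged protein in 1 entry and hpl-2 in another, so it is not known here which of them the antibody bound, and neither are the cells that gave the signal. No animals with wild-type lin-35 and no input library were analysed here. The files hold no read counts, so the depth of the libraries is unknown, and the mappability of single regions was not measured.

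HPL-2 is one of the worm homologues of heterochromatin protein 1, a chromatin protein known for binding histone H3 methylated at lysine 9, and it acts with lin-35, the worm retinoblastoma gene, in the synMuv genes that repress ectopic vulval fate. Away from protein-coding promoters, worm intergenic and intronic DNA holds many short genes for structural RNAs. Small nucleolar RNAs (snoRNAs) guide the modification of ribosomal RNA, small nuclear RNAs (snRNAs) form the spliceosome, and the SL2 spliced leader RNAs of the sls-2 genes are joined to the messages of downstream genes in operons. In Drosophila, runs of GA units are bound by the GAGA factor. No factor is assigned to such runs here.

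GA runs and a second short word marked most of the strong regions that had no structural RNA gene, and the examples here, taken from among the strongest of them with 1 beside a microRNA gene, show how these runs sit in their surroundings. Each line gives 30 bases, 5′ to 3′ on the strand named, from the RefSeq copy of WBcel235, which has the ce11 sequence. The capitals mark the run of GA units. Regions are named by the nearest protein-coding 5′ end, which is not meant as a target.
Y111B2A.12 (chrIII:12612749-12612778, minus strand): tattgcacGAGAGAGAGAGAGAgtgtcggt
epg-9 (chrIV:2602190-2602219, minus strand): tccccccgtgatGAGAGAtcatatgactac
mnk-1 (chrII:10552141-10552170, plus strand): gcgatggtggccGAGAGAtggttcttctcg
zfp-1 (chrIII:8802169-8802198, plus strand): tgaggatatgaaGAGAGAaagacagttaga
hif-1 (chrV:20778461-20778490, minus strand): gtccaaagagatGAGAGAgtgagagaacta
K01F9.2 (chrIII:8865457-8865486, plus strand): ccgtccgtgtgcGAGAGAgtgagcgagtgc
The first of these lies in an intron of Y111B2A.12 and holds 7 units in a row. The lines for epg-9, mnk-1 and zfp-1 lie in introns of those genes, and the other 2 between genes. The gene epg-9 acts in autophagy, mnk-1 encodes a kinase of the MAP kinase pathway, zfp-1 encodes a chromatin protein related to human AF10, and hif-1 encodes the hypoxia-inducible factor. The K01F9.2 line also lies beside the microRNA gene mir-80.

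A run of 3 or more GA units (GAGAGA on either strand, which is TCTCTC on the other) lay within 100 bp of the summit in 129 of 263 strong regions (49.0%, 95% Wilson interval 43.1 to 55.1%) and in 2144 of 16258 weaker regions (13.2%, 12.7 to 13.7%). Regions of 1 list are not replicates and there is no second group of samples, so these shares are set side by side without a test. The spread between libraries is seen in each library's own candidate list, with the strong regions taken as those in the library's top list, which holds as many candidates by signal as the thresholded list. There, 45.5% of 277 strong regions of replicate 1 and 36.9% of 309 of replicate 3 had a GA run, a mean of 41.2 ± 6.08% (SD, n = 2). The weaker regions had 13.3% and 11.9%, a mean of 12.6 ± 0.991% (SD, n = 2). The difference, 28.6 ± 5.09 percentage points, was larger than the spread between the libraries. In these lists the strong regions were 1.67% of the candidates of replicate 1 and 1.82% of those of replicate 3. Choosing by pooled signal uses both libraries, so neither list is independent of the 263.

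Longer runs were also present. Runs of 4 or more units occurred in 45 strong regions (17.1%, interval 13.0 to 22.1%) and in 446 weaker regions (2.74%, 2.50 to 3.01%). The longest run in a strong region had 33 units, and the longest in a weaker one had 42. Most of the GA runs were short, with 84 of the 129 strong regions having exactly 3 units as their longest run. Read in steps of 50 bp, a run was centred in each of the 4 steps within 100 bp of the summit in 17.1% to 20.9% of strong regions and in 3.69% to 4.03% of weaker ones. In the outer steps from 100 to 150 bp the strong regions had 12.9% before and 15.6% after the summit, against 3.88% and 3.76% of the weaker ones, so the higher shares were spread over the region. Counting unmasked bases alone left 39.2% of strong regions with a run and 9.76% of weaker ones.

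**Figure D1:**
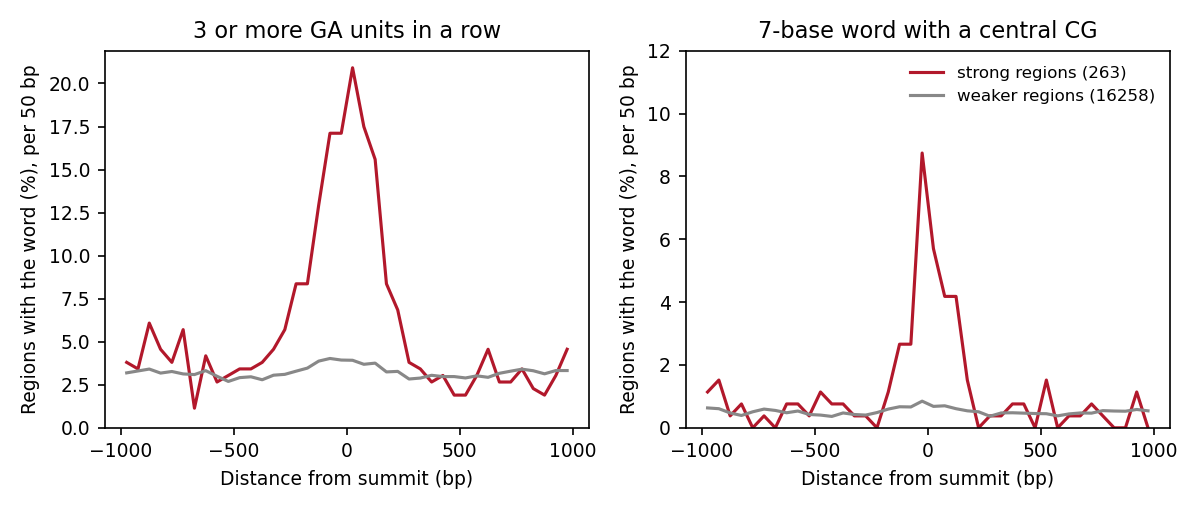
Share of regions (%) with a word in each 50 bp step from 1000 bp before to 1000 bp after the summit, for 3 or more GA units (left) and for the 7-base word with a central CG (right). The 263 strong regions (red) have their highest steps next to the summit, at 20.9% and 8.75% of regions, and stay higher in the steps around it. The line of the 16258 weaker regions (grey) also rises near the summit, by fewer percentage points. Its lowest and highest steps are 2.69% and 4.03% for GA units and 0.363% and 0.849% for the 7-base word.

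The second word, CTGCGTC on either strand, was chosen after the sequences of these regions had been seen, so its shares are a description of these lists. It lay within 100 bp of the summit in 49 strong regions (18.6%, 14.4 to 23.8%) and in 436 weaker ones (2.68%, 2.44 to 2.94%). The libraries' own lists gave 15.5% and 14.2% of strong regions, a mean of 14.9 ± 0.908%, and 2.73% and 2.46% of weaker ones, a mean of 2.60 ± 0.192% (SD, n = 2 each). Of the 129 strong regions with a GA run, 42 also held this word. In 7 of the 49 strong regions with the word, and in 78 of the 436 weaker ones, it shared a base with a GA run on the opposite strand, and in 39 and 289 of them it was followed by TC. Windows from 5 of the strongest regions with the word, with it in capitals and read from the same sequence, show its surroundings.
Y111B2A.12 (chrIII:12612654-12612683, plus strand): tcactcgatgtCTGCGTCtcggtgtcattt
epg-9 (chrIV:2602166-2602195, plus strand): tctttgcctgtCTGCGTCtcctccgtagtc
mnk-1 (chrII:10552201-10552230, plus strand): acttttagtgtCTGCGTCtacaaacttcta
W06H8.6 (chrV:6227727-6227756, minus strand): cgtgcggttctCTGCGTCtctggcttttct
zfp-1 (chrIII:8802097-8802126, plus strand): tgcttaagactCTGCGTCtcttttgcgcaa
In 4 of these 5 the regions also carried a GA run, the exception being the one beside W06H8.6, which lay near a snoRNA gene. The word was centred 9.0 to 67.0 bp from the summit in these windows.

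Genes for structural RNAs were the other feature. A snoRNA, snRNA or tRNA gene lay within 250 bp of the summit in 57 strong regions (21.7%, 17.1 to 27.0%) and in 238 weaker regions (1.46%, 1.29 to 1.66%). In the libraries' own lists, the strong regions had 18.8% in replicate 1 and 12.9% in replicate 3, a mean of 15.9 ± 4.12%, and the weaker ones 1.52% and 1.27%, a mean of 1.395 ± 0.181% (SD, n = 2 each). The difference of 14.5 ± 3.94 percentage points was larger than the spread between the libraries. These genes occur in many similar copies, and how reads that match several copies were assigned is not given in the sources used here. The snRNA genes of the strong regions held the highest signals of the 3 classes, and the DNA upstream of their starts is shown for that reason. U snRNA and spliced leader genes are known to use a proximal sequence element upstream of the start, so the word TGTCNG was looked for from 31 to 80 bases before it. That word was also chosen after sequences had been seen. The capitals mark it, and the lines for sls-2.2 and F38E11.11 hold none. Those lines cover bases 80 to 51 before the start. The lines with the word begin 57 to 68 bases before the start and end 28 to 39 bases before it. The lines without the word therefore overlap the others only in part. They stop at base 51, before the bases that hold the word in most of the others. Whether a near match lies past that base is not shown.
sls-2.1 (chrII:5844805-5844834, plus strand): tgcctcgaaagaTGTCTGtacacacatttg
sls-2.2 (chrII:5543518-5543547, plus strand): ctctcttgctgttactcgcttgcctcgaaa
sls-2.16 (chrIII:7141331-7141360, plus strand): gaacccgcgataTGTCGGgggcgactgcag
sup-6 (chrII:12944995-12945024, minus strand): gaacccgccacaTGTCGGcacacacgcgag
R07E5.16 (chrIII:10989611-10989640, plus strand): gaacccatgacaTGTCTGctacactcctta
F38E11.11 (chrIV:9444562-9444591, plus strand): gctattgacactgacccgcgaaacccgcaa
T11F9.15 (chrV:11980058-11980087, plus strand): aaagccgcgattTGTCGGttgctgtgtttt
T08G5.11 (chrV:14028663-14028692, minus strand): gaacccgcaaaaTGTCGGaacacacgagca
The word was present at 8 of the 10 snRNA genes beside a strong region (80%, 49.0 to 94.3%) and at 69 of the 116 other autosomal snRNA genes (59.5%, 50.4 to 68.0%). The intervals of the 2 shares overlap. It was present at 15.02% of autosomal snoRNA genes, 7.74% of tRNA genes and 2.63% of protein-coding genes in the same window, read on the gene's strand.

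The snRNA class held 16 strong regions (6.08%, 3.78 to 9.65%) and 34 weaker regions (0.209%, 0.150 to 0.292%). Their signal, the authors' own enrichment value per region and comparable only within a list, was 42.9 to 181.6 with a median of 63.9, against a median of 50.02 over all 263. The 16 lay beside 10 genes, because 6 genes had 2 overlapping strong regions. Of the 18 autosomal sls-2 genes, 5 had a strong region, with 8 regions in all, and no sls-1 gene, which encodes the SL1 leader, had any. Weaker regions beside sls-1 or sls-2 genes were not counted, so these numbers do not compare the leaders. The region at sls-2.1 had a signal of 181.6 and ranked 16 in replicate 1 and 5 in replicate 3. Its summit lay 36 bp before the start of the gene, which spans 5844865 to 5844974 on chromosome II. The region at sls-2.2 had a signal of 181.0, ranked 13 in replicate 1 and 11 in replicate 3, and had its summit 38 bp before the gene at 5543598 to 5543707 on the same chromosome. Another region past the end of each gene had a signal of 50.8 at sls-2.1 and 93.0 at sls-2.2. At each of the 6 genes with 2 regions, both regions overlapped the same best-ranked candidate in each library, so the pairs are not separate observations. The snRNA regions were split between 7 before the start, 2 inside the gene and 7 past its end. In 14 of the 16 the best-ranked overlapping candidate was in the top list of both libraries. That count takes the shared candidates of the 6 pairs once for each region, so it is not one of separate places.

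The snoRNA class was the most numerous, with 30 strong regions beside 30 genes (11.4%, 8.11 to 15.8%) and 80 weaker regions (0.492%, 0.396 to 0.612%). The libraries' own lists gave 9.75% and 5.83% of strong regions, a mean of 7.79 ± 2.77%, and 0.502% and 0.487% of weaker ones, a mean of 0.494 ± 0.0107% (SD, n = 2 each). Of the 30, 15 lay in an intron of a protein-coding gene and 15 between genes. The summit was before the snoRNA gene in 17, inside it in 9 and past its end in 4, and signals ran from 38.5 to 104.2 with a median of 49.3. The strongest region lay on chromosome V at 6227565 to 6227940, 203 bp before the snoRNA gene W06H8.17, with ranks 80 in replicate 1 and 36 in replicate 3. In 13 of the 30 the candidate was in the top list of both libraries. The region in the Y38F2AR.12 intron beside the snoRNA gene Y38F2AR.14, with a signal of 61.7, had rank 184 in replicate 1 and no candidate in replicate 3. The region beside T03F7.8 ranked 420 in replicate 1 and 28768 in replicate 3.

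The tRNA class had 12 strong regions (4.56%, 2.63 to 7.80%) and 124 weaker ones (0.763%, 0.640 to 0.909%). Signals were 38.3 to 62.7 with a median of 42.7, the lowest median of the 3 classes. The summit was inside the tRNA gene in 5, before it in 4 and past its end in 3, while 56 of the 124 weaker regions had it inside. Both libraries placed the candidate in their top list in 2 of the 12. The core of the B box, the internal promoter element of tRNA genes, was searched as GTTCGA and was present within 100 bp of the summit in 5 of the 12 strong regions (41.7%, 19.3 to 68.0%) and in 66 of the 124 weaker ones (53.2%, 44.5 to 61.8%), with overlapping intervals.

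Other noncoding classes had smaller counts. Genes annotated only as ncRNA were near 62 strong regions (23.6%, 18.8 to 29.1%) and 738 weaker ones (4.54%, 4.23 to 4.87%), and 28 of those 62 also had a structural RNA gene. The strongest of this class without a structural RNA gene lay over F26F4.14 on chromosome III at 4899746 to 4900121, 574 bp before tag-340, with a signal of 127.2 and ranks 38 in replicate 1 and 39 in replicate 3. MicroRNA genes were near 4 strong regions (1.52%, 0.593 to 3.84%) and 29 weaker ones (0.178%, 0.124 to 0.256%), and these 4 lay at mir-80, mir-2214 and, in 2 cases, mir-52. lincRNA genes were near 5 (1.90%) and 87 (0.535%), and antisense RNA genes near 4 (1.52%) and 32 (0.197%). piRNA genes, of the class that guides silencing in the germline and lies mostly on chromosome IV, were near 4 strong regions (1.52%, 0.593 to 3.84%) and 977 weaker ones (6.01%, 5.65 to 6.39%). The libraries' own lists gave 1.44% and 2.59% of strong regions, a mean of 2.02 ± 0.810%, and 5.71% and 5.65% of weaker ones, a mean of 5.68 ± 0.0437% (SD, n = 2 each). Pseudogenes were near 4 strong (1.52%) and 558 weaker regions (3.43%). No rRNA gene was near any strong region, and none was near any of the 16258 weaker ones. For the strong regions, 0 of 263 allows a share of up to 1.14%, counting error only.

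**Figure D2:**
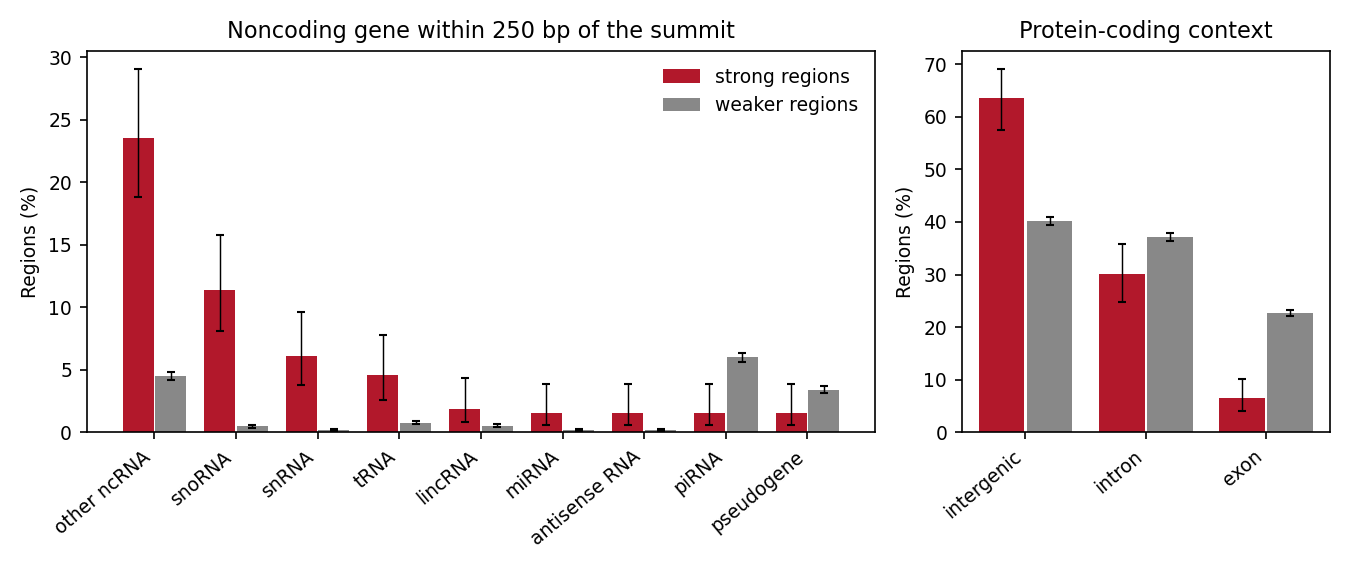
Share of the 263 strong regions (red) and the 16258 weaker regions (grey) with a noncoding gene of each class within 250 bp of the summit (left) and with the summit between genes, in an intron or in an exon of a protein-coding gene (right). Bars are percent of regions with 95% Wilson intervals; snoRNA genes were near 11.4% and 0.492%, snRNA genes near 6.08% and 0.209%, and exons held 6.46% and 22.7%.

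GA runs and structural RNA genes marked mostly different strong regions. A GA run was present in 9 of the 57 strong regions beside a structural RNA gene (15.8%, 8.54 to 27.4%) and in 120 of the 206 others (58.3%, 51.4 to 64.8%). Among the weaker regions the shares were 20.2% (15.6 to 25.7%) of 238 beside such a gene and 13.1% (12.6 to 13.6%) of 16020 others. The word CTGCGTC was present in 2 of the 57 strong regions beside a structural RNA gene and in 47 of the 206 others. At least 1 of the 3 features (a GA run, CTGCGTC, or a structural RNA gene) was present in 183 strong regions (69.6%, 63.8 to 74.8%) and in 2547 weaker regions (15.7%, 15.1 to 16.2%). That left 80 strong regions with none of them.

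The summit of 167 strong regions (63.5%, 57.5 to 69.1%) lay between protein-coding genes, of 79 (30.04%, 24.8 to 35.8%) in an intron and of 17 (6.46%, 4.07 to 10.1%) in an exon. In the weaker regions the shares were 40.1% (39.4 to 40.9%), 37.2% (36.4 to 37.9%) and 22.7% (22.1 to 23.3%). For exons, the libraries' own lists gave 9.03% and 8.09% of strong regions, a mean of 8.56 ± 0.661%, and 23.9% and 23.4% of weaker ones, a mean of 23.7 ± 0.337% (SD, n = 2 each). For introns the difference was -7.63 ± 1.48 percentage points over the libraries' own lists. The exon share was also low in other thresholded sets. It was 8.16% at autosomal promoters against 29.9% of the other promoter candidates. On X away from 5′ ends it was 4.40% against 17.6% of the other candidates. Of the 17 exonic regions, 9 were in a 3′ UTR and 1, the strongest of all 263, in the 5′ UTR of C34C12.2 on chromosome III at 3456323 to 3456512. That region had a signal of 191.6, ranked 11 in replicate 1 and 15 in replicate 3, and held no GA run and no noncoding gene within 250 bp. A GA run was present in 57.0% of the strong intronic regions (46.0 to 67.3%) and in 11.2% of the weaker ones, in 49.1% and 15.4% of the intergenic ones, and in 2 of the 17 strong exonic regions (11.8%, 3.29 to 34.3%) against 12.6% of the weaker exonic ones.

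Strong regions were not much farther from or nearer to protein-coding starts than weaker ones, within the limit that chose both. The median distance was 1656 bp for strong regions and 1670.5 bp for weaker ones, with 23 strong regions more than 5000 bp away. Of the intergenic ones, 117 of 167 strong regions (70.1%, 62.7 to 76.5%) and 4798 of 6527 weaker regions (73.5%, 72.4 to 74.6%) lay upstream of the nearest 5′ end. When noncoding transcripts were counted too, 108 strong regions (41.1%, 35.3 to 47.1%) and 2739 weaker ones (16.8%, 16.3 to 17.4%) had some 5′ end within 500 bp. Among the 155 strong regions without any such end, a GA run was present in 56.1%, against 12.9% of the weaker regions without one. A protein-coding 3′ end lay within 500 bp of 69 strong regions (26.2%, 21.3 to 31.9%) and of 21.0% (20.3 to 21.6%) of weaker ones.

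The strong regions were richer in G and C than the weaker ones, a trait shared with the other thresholded regions. In the 100 bp to either side of a summit, GC content averaged 43.5% ± 7.23 in strong regions and 34.5% ± 6.83 in weaker ones (SD among regions, n = 263 and 16258). The libraries' own lists gave 41.6 ± 2.37% for strong and 34.5 ± 0.817% for weaker regions (mean ± SD, n = 2). Thresholded promoter regions averaged 41.5% GC and the other autosomal promoter candidates 35.3%. On X away from 5′ ends the thresholded regions averaged 42.7% and the other candidates 34.8%. Masked bases were also fewer in both thresholded sets, at 30.6% against 34.9% at promoters and 17.5% against 30.5% on X. Lower-case, repeat-masked sequence made up 19.6% of the bases around strong summits and 38.7% around weaker ones, and 49 strong regions (18.6%) against 6.59% of weaker regions had no masked base. Among regions of 35 to 45% GC the masked share was 20.9% in strong and 27.1% in weaker regions, so the difference was -6.27 percentage points there and -19.1 over all regions. A run of GA units is itself of even base composition, so the words were also read within 3 bins of GC content. A GA run was present in 4 of 41 strong regions under 35% GC (9.76%, 3.86 to 22.5%) and in 7.73% of weaker ones (7.20 to 8.30%), with overlapping intervals. Between 35 and 45% GC the shares were 43.3% of 104 strong (34.2 to 52.9%) and 17.9% of 6196 weaker regions (17.0 to 18.9%). Above 45% GC they were 67.8% of 118 strong (58.9 to 75.6%) and 30.9% of 1111 weaker regions (28.2 to 33.7%). Structural RNA genes lay near 12.2%, 23.1% and 23.7% of strong regions in the 3 bins, from low to high GC, and near 0.413%, 1.71% and 8.55% of weaker ones.

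**Figure D3:**
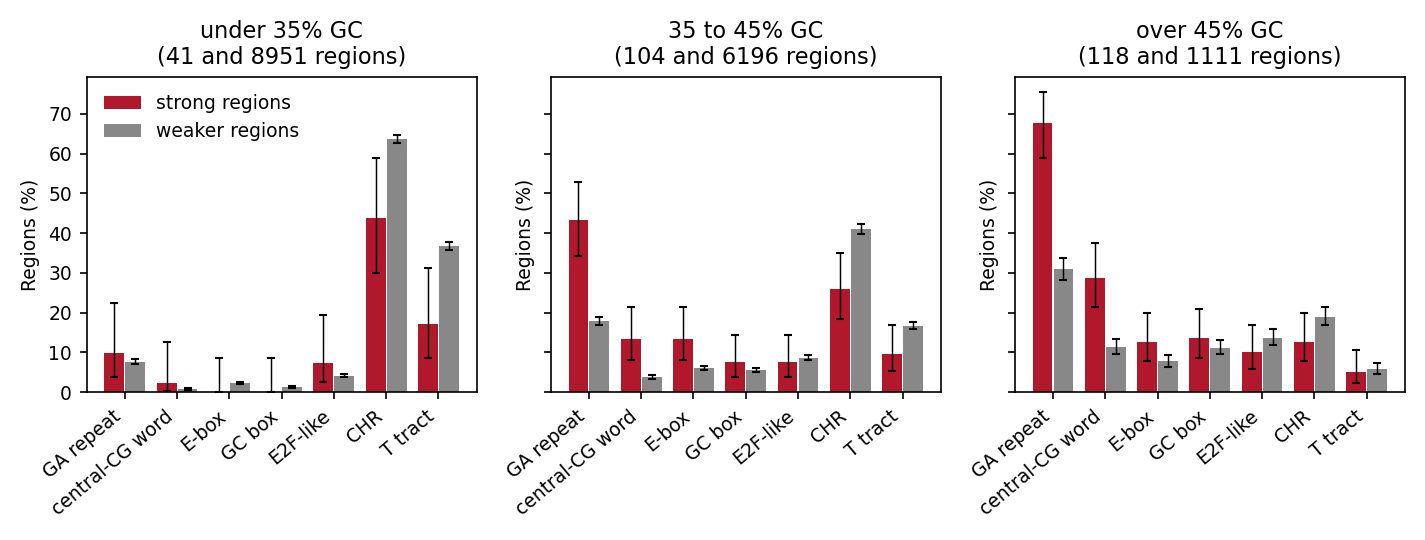
Share of regions (%) with each word within 100 bp of the summit in 3 bins of GC content, for strong regions (red) and weaker regions (grey), with 95% Wilson intervals. In the 2 bins from 35% upwards the GA run has the higher share in the strong regions, at 43.3% and 17.9% and at 67.8% and 30.9%. The CHR word has the higher share in the weaker regions in every bin, with overlapping intervals above 45%.

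Words of other factors were looked for because lin-35 acts in the DREAM complex, which is known to bind E2F and CHR elements. The E2F-like words searched on both strands were TTCCCGC with its variant TTCGCGC, and TTGCCGC with its variant TTGGCGC. One of them was present in 23 strong regions (8.75%, 5.90 to 12.8%) and 6.53% of weaker ones (6.16 to 6.92%), with overlapping intervals. From low to high GC the shares were 7.32%, 7.69% and 10.2% of strong and 4.12%, 8.72% and 13.7% of weaker regions. The direction thus differed between bins, but the intervals overlap in each bin. Within 50 bp of the summit the shares were nearly equal, at 3.04% and 3.08%, a difference of -0.034 percentage points. One of these words was present in 21.3% (17.7 to 25.4%) of the 441 promoter regions past the same threshold. The other autosomal promoter candidates had 7.71%. The CHR word TTTGAA was present in 22.8% of strong regions (18.2 to 28.3%) and 52.0% of weaker ones (51.2 to 52.7%). Its shares in the GC bins, from low to high, were 43.9%, 26.0% and 12.7% of strong and 63.6%, 41.0% and 19.0% of weaker regions, and the intervals overlap above 45% GC. A tract of 8 or more T was present in 8.75% of strong regions (5.90 to 12.8%) and 27.1% of weaker ones (26.4 to 27.7%). From low to high GC its shares were 17.1%, 9.62% and 5.08% of strong and 36.8%, 16.8% and 5.76% of weaker regions, and the intervals overlap in the 2 bins from 35% upwards. The E-box CACGTG was present in 29 strong regions (11.0%, 7.79 to 15.4%) and 4.10% of weaker ones (3.81 to 4.42%). Between 35 and 45% GC it was present in 13.5% (8.19 to 21.3%) and 6.10% (5.53 to 6.72%). Above 45% GC the shares were 12.7% of strong (7.86 to 19.9%) and 7.74% of weaker regions (6.31 to 9.46%), with overlapping intervals. Under 35% GC it was found in 0 of 41 strong regions, which allows a share of up to 7.32%, and in 2.27% of weaker ones. On X away from 5′ ends the E-box was present in 13.2% of thresholded regions and 3.77% of the other candidates. The GC box GGGCGG was present in 9.13% and 3.64% but, within the bin above 45% GC, in 13.6% and 11.3%, with overlapping intervals. The extended GATA word TGATAA, of the kind bound by intestinal GATA factors, was present in 17.9% of strong regions (13.7 to 23.0%) and 20.2% of weaker ones (19.6 to 20.9%). Its direction turned with GC content: under 35% GC it was present in 34.1% of strong (21.6 to 49.5%) and 22.5% of weaker regions (21.6 to 23.4%). Between 35 and 45% GC the shares were 26.9% of strong (19.3 to 36.2%) and 19.1% of weaker regions (18.2 to 20.1%), and above 45% they were 4.24% (1.82 to 9.54%) and 8.37% (6.88 to 10.1%) of strong and weaker regions. The intervals overlap in each bin. The AP-1 word TGANTCA was present in 3.04% (1.55 to 5.89%) and 5.87% (5.52 to 6.25%), with overlapping intervals.

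Set beside the promoter regions of the same thresholded list, a GA run was present in 49.0% of the strong regions away from promoters (43.1 to 55.1%) and in 31.3% of the promoter regions (27.1 to 35.8%). A structural RNA gene lay near 21.7% (17.1 to 27.0%) and 4.54% (2.95 to 6.90%) of them. CTGCGTC was present in 18.6% (14.4 to 23.8%) and 15.9% (12.8 to 19.6%), with overlapping intervals. The CHR word was present in 22.8% (18.2 to 28.3%) and 44.4% (39.9 to 49.1%). The other autosomal promoter candidates, which did not pass the threshold, had 15.2%, 1.49%, 4.70% and 48.6% for these features in the same order. The CHR share of the promoter regions was thus near that of the other promoter candidates. These differences were not tested. In the thresholded regions away from promoters on chromosome X, of which there were 91, a GA run was present in 32.97% (24.2 to 43.1%) and a structural RNA gene in 16.5% (10.3 to 25.4%). The other X candidates away from 5′ ends had 11.1% and 3.45%. The CHR word was present in 29.7% of the 91 (21.3 to 39.7%) and in 51.7% of those other X candidates. By class, 14 of the 91 lay near a tRNA gene (15.4%), 1 near a snoRNA gene (1.10%) and 0 near a snRNA gene. The other X candidates had 3.25%, 0.172% and 0.0246% in that order, so tRNA genes were also their largest class. The strong regions had 12, 30 and 16 of 263 (4.56%, 11.4% and 6.08%), and the weaker regions 0.763%, 0.492% and 0.209%. How far the classes follow from where the genes lie was not tested.

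The features ran along the whole ranking of autosomal candidates away from promoters and did not begin at the threshold. From the strongest to the weakest of 6 rank bins of the pooled list, the share with a GA run was 49.0%, 35.1%, 25.2%, 16.7%, 13.8% and 10.6%. It was 45.5% in the first and 10.9% in the last bin of replicate 1, and 36.9% and 10.2% in those of replicate 3. Each share was below the one before it in all 3 lists, which share reads. Mean GC content also went down over the pooled bins, from 43.5% to 33.9%. Among regions of 35 to 45% GC, the share with a GA run went from 43.3% to 14.5% in the pooled list. There it fell at each step in the pooled list and in replicate 3. In replicate 1 it rose from 35.7% in the first bin to 36.8% in the next. The share beside a structural RNA gene went from 21.7% to 0.728% in the pooled list.

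**Figure D4:**
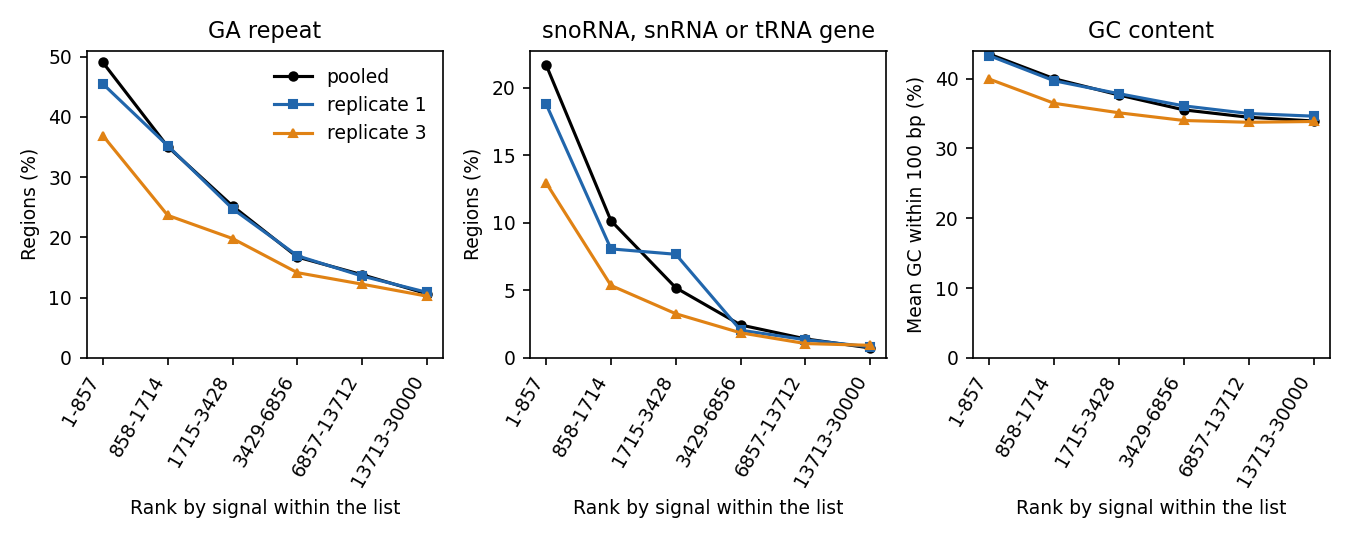
Share of autosomal candidates away from promoters with a GA run (left) or a snoRNA, snRNA or tRNA gene (middle), in percent, and mean GC content in percent (right), by rank of signal in the pooled list, replicate 1 and replicate 3. The first bin of the pooled list is the 263 strong regions; GA runs go down from 49.0% to 10.6% across its 6 bins.

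The libraries did not support the strong regions evenly. Replicate 1 had an overlapping candidate in its top list for 226 of the 263 strong regions (85.9%, 81.2 to 89.6%) and replicate 3 for 144 (54.8%, 48.7 to 60.7%). Both did for 116 (44.1%, 38.2 to 50.1%), exactly 1 library for 138, and neither for 9. Replicate 3 had no candidate for 5 strong regions, and replicate 1 had one for every strong region. Ranks ran from 11 to 3108 with a median of 476 in replicate 1, and from 5 to 29652 with a median of 646 over the 258 regions with a candidate in replicate 3. In 20 strong regions the candidate was among the top 100 of both libraries. The share with a GA run was 46.6% (37.7 to 55.6%) in the 116 regions high in both libraries and 51.0% (43.0 to 59.0%) in the other 147, and the share beside a structural RNA gene was 25% (18.01 to 33.6%) and 19.0% (13.5 to 26.2%). Both pairs of intervals overlap. At the thresholded promoter regions, 44.9% (40.3 to 49.6%) were in the top lists of both libraries.

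**Figure D5:**
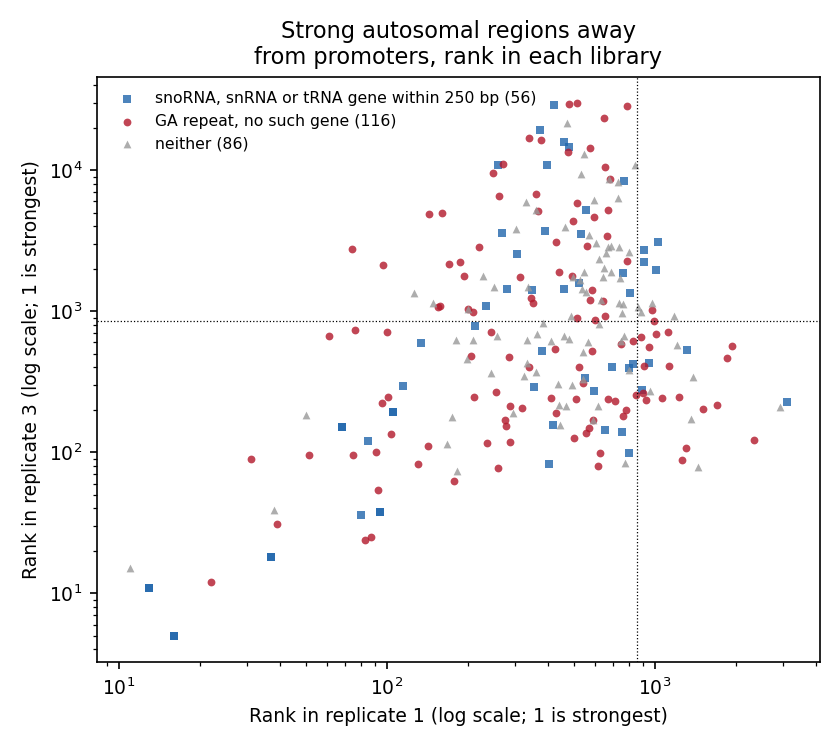
Rank of the overlapping candidate in replicate 1 and replicate 3 (log axes, 1 is the strongest) for the 258 strong regions with a candidate in both, coloured by structural RNA gene, GA run or neither; dotted lines mark the limit of each library's top list. Ranks spread far more in replicate 3, up to 29652, than in replicate 1, up to 3108.

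Of the 15 strong regions with the highest signal, 6 carried a GA run and 6 others lay beside a snoRNA or snRNA gene, with none carrying both. Of the remaining 3, 2 lay beside a gene annotated only as ncRNA and 1, in C34C12.2, had none of these. By signal, the strong regions ran from 37.9 to 191.6 with a median of 50.02 in the pooled list. Their candidates ran from 18.02 to 150.6 (median 39.3) in replicate 1 and from 2.04 to 46.5 (median 12.3) in replicate 3, on scales that cannot be compared between lists. The candidates at the 4 strongest regions had signals of 150.6 at C34C12.2, 138.1 at sls-2.1, 142.4 at sls-2.2 and 122.8 at Y111B2A.12 in replicate 1. In replicate 3 they had 40.1, 46.5, 41.1 and 41.0 in that order, so all 4 were near the top of both lists. After C34C12.2, sls-2.1 and sls-2.2 came the intron of Y111B2A.12 (signal 164.2, ranks 22 in replicate 1 and 12 in replicate 3), at chromosome III 12612505 to 12612880. The region at sls-2.4 on chromosome I, at 4171997 to 4172372, had a signal of 144.8 and ranks 37 in replicate 1 and 18 in replicate 3. A region at 16961 to 17079 of chromosome I, 1916 bp downstream of the start of nlp-40, a neuropeptide gene of the defecation cycle, had a signal of 130.2 and ranks 39 in replicate 1 and 31 in replicate 3. The epg-9 intron on chromosome IV at 2602001 to 2602376 had a signal of 128.2 and ranks 31 in replicate 1 and 89 in replicate 3. The mnk-1 intron on chromosome II at 10551960 to 10552335 had a signal of 107.1 and ranks 51 in replicate 1 and 96 in replicate 3. The zfp-1 intron on chromosome III at 8801951 to 8802326 had a signal of 104.1 and ranks 83 in replicate 1 and 24 in replicate 3, and the region 1930 bp before hif-1 on chromosome V at 20778289 to 20778664 had 101.8 and ranks 87 in replicate 1 and 25 in replicate 3. GA runs were present in the 6 regions named by Y111B2A.12, nlp-40, epg-9, mnk-1, zfp-1 and hif-1. The 5 others among the 15 were the regions beside tag-340 and W06H8.17, described earlier, and 3 more without a run. The first of these lay 554 bp before ubql-1, a ubiquilin gene, on chromosome I at 7021230 to 7021605, over the ncRNA gene VF15C11L.1, with a signal of 108.8 and ranks 50 in replicate 1 and 184 in replicate 3. Another lay over the snRNA gene sup-6 in an intron of F58G1.7 on chromosome II at 12944619 to 12944994, with a signal of 99.1 and ranks 68 in replicate 1 and 150 in replicate 3. The last lay 48 bp before the snoRNA gene F59C6.15 on chromosome I at 10517010 to 10517385, with a signal of 98.5 and ranks 85 in replicate 1 and 121 in replicate 3.

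At the other end, the 3 weakest strong regions lay 528 bp before hpo-29 on chromosome III (signal 37.905), near oig-2 on chromosome II (38.2) and 912 bp before C18E9.9 on chromosome II (38.3). The first of them ranked 1858 in replicate 1 and 469 in replicate 3. The 3 strongest weaker regions had signals of 37.875, 37.825 and 37.793, near txt-19 on chromosome IV, in an intron of nhx-8 on chromosome I and near Y50D7A.8 on chromosome III. These values describe the threshold and were not tested.

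The strong regions were densest on chromosome III, with 64 regions or 4.64 per Mb, followed by chromosome I with 56 (3.72 per Mb). Chromosome II had 45 (2.95 per Mb), chromosome IV had 50 (2.86 per Mb) and chromosome V had 48 (2.29 per Mb). As a share of all candidates away from promoters they were 1.95% on III and 1.86% on I, against 1.58% on II, 1.37% on IV and 1.29% on V. The outer 25% at either end of a chromosome, the arms that are rich in repeats and H3K9 methylation in worms, held 106 strong regions (40.3%, 34.6 to 46.3%) and 8225 weaker ones (50.6%, 49.8 to 51.4%). The libraries' own lists gave 40.8 ± 3.12% of strong and 50.1 ± 0.498% of weaker regions (mean ± SD, n = 2). On each of the 5 autosomes the share of strong regions in the outer parts was below that of weaker ones, from 33.3% against 47.5% on V to 46.0% against 52.4% on IV. GA runs were present in 33.3% of strong regions on V to 60% on IV, against 11.0% to 14.7% of weaker regions over the 5 chromosomes.

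The strong regions were not all separate places. In 260 of the 263 the width was the same, 376 bp, and the 263 formed 255 groups of overlapping regions, of which 8 held more than 1 region and 16 regions in all. With the strongest region of each group alone, a GA run was present in 49.8% of 255 strong regions against 13.0% of weaker groups, and a structural RNA gene in 20% against 1.43%.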

How the data were processed

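HPL-2 ChIP-seq was measured in 2 libraries of 1 group. The authors deposited candidate regions per library and for both libraries pooled, and a thresholded list; per the deposited file listings, each candidate list was derived from alignments and 1 control file, which was not analysed here, and the thresholded list from the candidate lists. Each region carries a signal, an enrichment value by the authors' caller whose scale is set within a list, and a −log10 q-value, deposited with nearly all strong regions at the same highest value (260 of 263). The aligner, the caller and its settings were not given in the sources used, and regions were ranked by signal. The lists on ce10, where 766 regions passed the threshold, were not converted.

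Positions are 1-based summits on ce11. Genes came from Ensembl release 115 for WBcel235 and sequence from its RefSeq copy. A noncoding gene counted within 250 bp, and words, GC content and masked bases within 100 bp, of the summit. Overlap between lists needed 1 bp. Python 3.11.15 with numpy 2.4.6, pandas 2.3.3, scipy 1.17.1 and matplotlib 3.10.9 was used. On simulated data, the search for GA runs, E-boxes and GC boxes, the GC and masked shares, and list overlap were tested. The gene annotation and the other words were not tested in this way. Shares carry 95% Wilson intervals. Those intervals reflect counting error only, as does the upper limit of 3 counts given where none was found. No test over regions was run. The strong regions and the words were chosen with earlier results of these data known, and CTGCGTC and TGTCNG after sequences were seen. Regions were named from the 15 with the highest signal, up to 6 of each noncoding class, the strongest by context, those at the threshold and those whose library ranks were best or differed most. Library values come from each library's own top list, as long as the thresholded list, and its other autosomal candidates away from 5′ ends.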

Additional observations from a re-analysis of the deposited data

How the results depend on the processing

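Differences are strong minus weaker regions, in percentage points. Alternatives that took the midpoint of a region for its summit could hardly differ from the main result. In the regions of 376 bp, 260 of the 263, the 2 positions lay next to each other. The other alternatives also reuse the same ranked regions, so a count of them is not one of independent checks. Of 77 alternatives given as such differences, 75 kept the direction. Both that reversed it concern the E2F-like word, whose difference of 2.22 became -0.034 within 50 bp of the summit and -1.02 at 35 to 45% GC. Within 50 bp the shares were nearly equal, at 3.04% and 3.08%. Within 200 bp the difference was 6.75. With each library's own list, leaving the other out, the differences ran from 24.9999 to 32.2 for GA runs, 11.7 to 17.2 for structural RNA genes, -15.3 to -14.9 for exons, -8.67 to -6.59 for introns, 5.96 to 8.17 for GC content, -16.7 to -15.2 for masked bases, -11.1 to -7.40 for the outer chromosome and 0.639 to 2.81 for the E2F-like word. With a 5′ end limit of 250 bp they were 30.7 for GA runs, 15.4 for structural RNA genes, -17.4 for exons, -14.6 for introns, -16.3 for masked bases and 4.45 for the E2F-like word. At 1000 bp they were -15.5 for exons, -2.98 for introns and -5.70 for the outer chromosome. With 5′ ends of all transcripts they were 43.3 for GA runs, -15.3 for exons, -14.8 for introns, -16.7 for masked bases and -6.47 for the outer chromosome. The stronger part of the thresholded list gave 41.0 for GA runs, -17.7 for exons, -4.66 for introns, 10.7 for GC content, -21.5 for masked bases and 4.31 for the E2F-like word. Reading 50 bp gave 26.7 for GA runs and -20.5 for masked bases, and 200 bp gave 6.89 for GC content and -15.3 for masked bases. At 35 to 45% GC, GA runs gave 25.4 and masked bases -6.27. Chosen after seeing the data, 4 or more GA units gave 14.4, unmasked bases 29.4 and regions without a structural RNA gene 45.2, against 35.9 for all. Support by both libraries, 44.1%, became 34.98% where summits had to lie within 100 bp and 66.9% when more regions per library were counted. The causes were not tested. No paired analysis was possible because the samples form 1 group.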
